A study of Mus musculus with 2 samples.

Results

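The sodium, calcium and HCN channel genes are the protein-coding genes whose symbols name a subunit of a voltage-gated sodium channel, a voltage-gated calcium channel or a hyperpolarization-activated cyclic nucleotide-gated (HCN) channel. They were taken by symbol from the GENCODE M21 annotation (Scn alpha and beta genes, Cacna1, Cacna2d, Cacnb, Cacng and Hcn genes), with no use of their levels. The rule found 44 of the 43346 genes in the files, of which 21474 were protein-coding. They comprised 10 sodium channel alpha genes, 4 sodium channel beta genes, 10 calcium channel alpha1 genes, 4 alpha2delta genes, 4 calcium channel beta genes, 8 gamma genes and 4 HCN genes. RNA came from whole midbrain of healthy embryos of strain B6NCrl at embryonic day 12.5 (E12.5), with males and females pooled. Replicate 1 was a pool of 120 embryos and replicate 2 a separate pool of 88 embryos, and both form 1 untreated group. Each library started from 10 ng of RNA longer than 200 nt. They held 28212913 and 36082574 estimated counts on genes. The labels give no second stage, tissue or treatment, so the data describe levels within the midbrain and the difference between the 2 pools.

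In voltage-gated sodium and calcium channels a single large protein, the alpha or alpha1 subunit, forms the pore and senses the membrane voltage, while smaller subunits set how many channels reach the surface and how fast they open and close. Sodium channels carry the rising phase of the action potential, and calcium channels let in the calcium that triggers transmitter release and gene expression. HCN channels open on hyperpolarization and carry a depolarizing current that paces rhythmic firing. The E12.5 midbrain holds dividing progenitors beside newly formed neurons, whose channel genes are among those that come on as the cells mature.

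Several pore genes carry a pair of alternative exons of equal length, of which a transcript uses one or the other, so that the reading frame is kept. Among the members, 9 such pairs were found in the annotation. In the sodium channel genes the pair codes for part of the voltage sensor of the first domain, and the upstream and downstream copies are known as the neonatal and the adult exon. The pairs of Cacna1c and Cacna1d, genes of L-type calcium channels, are shown as examples of such a pair, and in both genes all transcripts with either copy in the files are full-length. Each sequence is the exon as read in the transcript, 5′ to 3′, from the GENCODE M21 transcripts on GRCm38, and capitals mark the bases at which a gene's own copies differ. The Cacna1c copies lie on the minus strand at chr6:118742265-118742368 (upstream) and chr6:118741871-118741974 (downstream). The Cacna1d copies lie on the minus strand at chr14:30171956-30172059 and chr14:30171296-30171399.
Cacna1c upstream copy: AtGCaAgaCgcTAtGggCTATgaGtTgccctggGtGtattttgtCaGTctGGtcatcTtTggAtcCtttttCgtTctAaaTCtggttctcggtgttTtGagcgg
Cacna1c downstream copy: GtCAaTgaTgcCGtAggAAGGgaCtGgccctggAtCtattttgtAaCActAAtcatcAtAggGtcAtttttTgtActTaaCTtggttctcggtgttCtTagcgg
Cacna1d upstream copy: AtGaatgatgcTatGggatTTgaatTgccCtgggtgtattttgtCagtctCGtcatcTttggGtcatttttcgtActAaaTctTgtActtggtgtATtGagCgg
Cacna1d downstream copy: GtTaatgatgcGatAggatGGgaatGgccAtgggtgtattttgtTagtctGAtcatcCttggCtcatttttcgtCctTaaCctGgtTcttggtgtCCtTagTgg

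The copies shown are 104 nt long and differ at 32 positions in Cacna1c and 22 in Cacna1d, so that a gene's own copies share 69.2% and 78.8% of their bases. The sodium channel copies are 92 nt long. The downstream copies of Scn3a and Scn2a were identical over all 92 bases. A read lying within that exon alone could come from either gene. Whether the deposited counts divided such reads is not known, because the only annotated Scn2a transcript with that copy had another structure in the files.

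Of the 44 members, 29 reached 1 TPM, a level corrected for transcript length and library size, in both libraries and the other 15 stayed under 1 TPM in both. Among all protein-coding genes, 60.6% reached 1 TPM in both libraries. The 29 members had a median level of 4.21 TPM, beside 21.2 TPM for the 13215 protein-coding genes at a mean of 1 TPM or more. Summed over the 44 members, the levels came to 337 TPM in replicate 1 and 317 TPM in replicate 2. In bulk tissue, fewer cells that express a gene and less of its RNA per cell cannot be told apart. The calcium channel beta genes made the largest class sum, and every class but the calcium channel alpha1 genes had a leading member with more than 50% of its TPM.

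**Figure D1:**
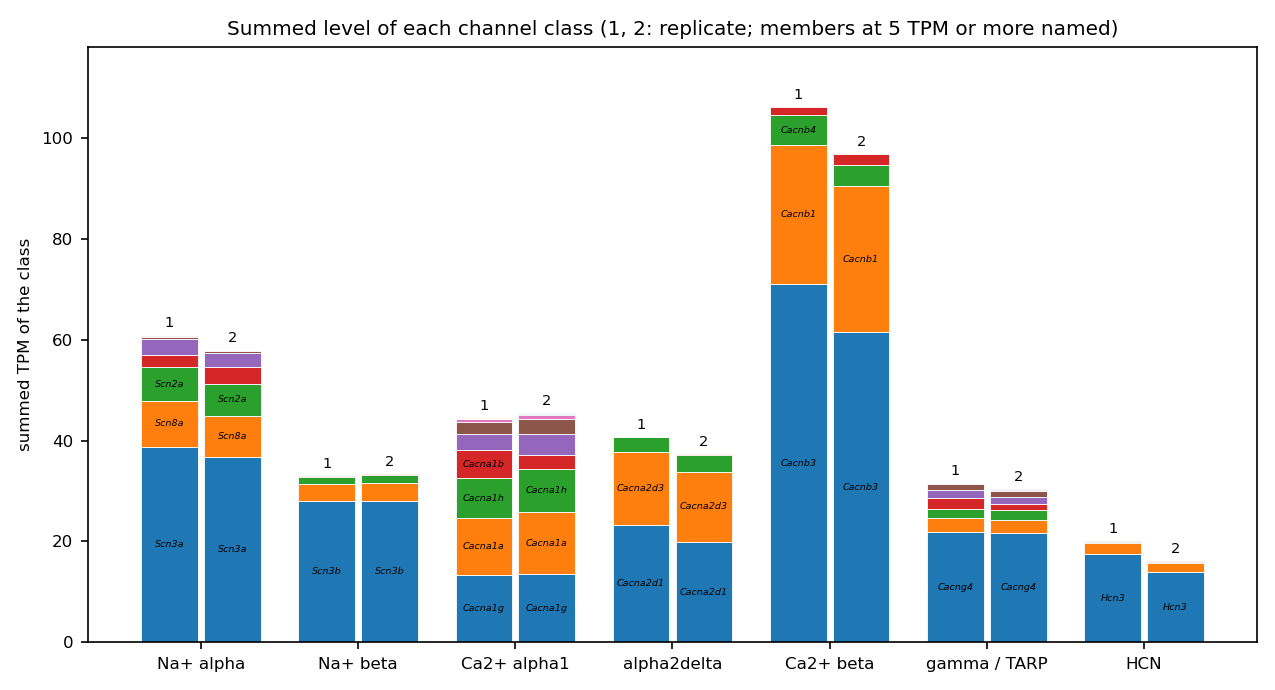
Stacked bars give the summed TPM of each channel class in replicates 1 and 2, with one colour per member and members at 5 TPM or more named. Cacnb3 alone took 71.0 and 61.5 TPM of the calcium channel beta class, while the calcium channel alpha1 class was divided among several genes.

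Among the sodium channel alpha genes, which code for the pore, the class summed to 60.9 TPM and 58.0 TPM (replicate 1 is given first throughout). Scn3a, whose channel is known as the embryonic form in rodent brain, was at 38.7 and 36.8 TPM. That was 63.5% ± 0.191 of the class (SD, n = 2). The gene lies at chr2:65457118-65567627 on the minus strand of GRCm38. Scn8a, the channel of mature nodes of Ranvier and axon initial segments, was at 9.12 and 8.16 TPM. Scn2a, a channel of unmyelinated axons that is also used early in development, was at 6.64 and 6.32 TPM. The deposited TPM intervals of Scn3a lay above those of Scn8a in both libraries, whereas those of Scn8a and Scn2a overlapped in both.

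Scn1a and Scn9a were each over 10 times lower than Scn3a in both libraries. Scn1a, a channel of inhibitory neurons, was at 2.55 and 3.36 TPM. Scn9a, best known from peripheral sensory neurons, was at 3.08 and 2.81 TPM. The intervals of Scn1a and Scn9a overlapped in both libraries, so their order was not resolved. Scn7a, Scn11a, Scn4a and Scn10a had levels from 0 to 0.320 TPM. Scn10a, a channel of nociceptors, had 0 counts in both libraries, and Scn4a, the skeletal muscle channel, had 2 counts in each. Scn11a, another nociceptor channel, had 15 and 18.

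The genes Scn3a, Scn2a, Scn1a, Scn9a and Scn7a stand in one cluster on chromosome 2, in that order. Mean levels along that cluster were 37.7, 6.48, 2.96, 2.95 and 0.315 TPM. Scn3a and Scn2a are neighbours 53.1 kb apart on opposite strands with no coding gene between them. Scn10a and Scn11a, neighbours 34.4 kb apart on chromosome 9, were both under 1 TPM. Scn1a and Scn9a, at similar mean levels, lie 39.2 kb apart with no coding gene between them. Some other adjacent members stood at unlike levels. Scn2b at 3.48 TPM and Scn4b at 0.140 TPM lie 8.3 kb apart on chromosome 9, and Cacng4 at 21.7 TPM lies 15.8 kb from Cacng1 at 0.155 TPM on chromosome 11.

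The sodium channel beta genes code for single-pass proteins that modulate gating and act as adhesion molecules. Scn3b was at 28.0 and 28.1 TPM, and held 84.7% ± 0.530 of the class (SD, n = 2). Scn2b was at 3.37 and 3.58 TPM. Their intervals did not overlap in either library. Scn4b, which is prominent in striatum and in sensory neurons, was at 0.150 and 0.130 TPM.

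Calcium channel alpha1 genes, which form the pore, summed to 44.5 and 45.4 TPM. The T-type genes, whose channels open at low voltage, gave the highest and the third-highest gene of this class. Cacna1g was at 13.4 and 13.5 TPM, or 30.0% ± 0.298 of the class (SD, n = 2). Cacna1h was at 7.80 and 8.52 TPM. The T-type gene Cacna1i was at 0.130 and 0.0600 TPM, below the deposited intervals, which began at 0.300 and 0.173 TPM. A deposited interval is built on the posterior mean and need not contain the deposited TPM.

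The high-voltage genes of presynaptic terminals were also present. Cacna1a, the P/Q-type pore, was at 11.3 and 12.3 TPM, and its intervals overlapped those of Cacna1g in both libraries. Cacna1b, the N-type pore, was at 5.69 and 2.72 TPM. Cacna1e, the R-type pore, was at 2.39 and 3.03 TPM. Of the L-type genes, Cacna1c was at 3.07 and 4.20 TPM and Cacna1d at 0.570 and 0.720 TPM. Cacna1s, the pore of skeletal muscle, and Cacna1f, the pore of photoreceptor synapses, stayed between 0.0200 and 0.210 TPM. Both had at most 13 counts in a library. The Cacna1f values lay below its deposited intervals, which began at 0.181 and 0.159 TPM. No neighbouring pair in the order of the 6 alpha1 genes at 1 TPM or more had intervals apart in both libraries.

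The alpha2delta proteins bind the outer face of the calcium channel, raise its number at the surface and include the targets of gabapentin. Cacna2d1 was at 23.2 and 20.0 TPM, or 55.3% ± 2.29 of the class (SD, n = 2). Cacna2d3 was at 14.5 and 13.8 TPM and Cacna2d2 at 3.01 and 3.39 TPM. These genes kept one order with intervals apart in both libraries. Cacna2d4, a retinal form, was at 0.110 and 0.130 TPM, with 7 and 5 counts. Those values lay below its deposited intervals, which began at 0.414 and 0.312 TPM.

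The calcium channel beta genes, whose proteins bind the pore inside the cell and carry it to the membrane, included the highest member of all. Cacnb3 was at 71.0 and 61.5 TPM, or 65.2% ± 2.34 of the class (SD, n = 2). It lies at chr15:98630840-98644529 on the plus strand. Across all protein-coding genes, 2632 had a higher mean. Cacnb1, which serves muscle as well as brain, was at 27.5 and 28.9 TPM. Cacnb4 was at 5.92 and 4.10 TPM and Cacnb2 at 1.74 and 2.23 TPM. Intervals of these 4 genes were apart in both libraries at every step of the order. The Cacnb class summed to 106.2 and 96.8 TPM, while the whole alpha1 class, T-type genes included, summed to 44.5 and 45.4 TPM.

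The gamma genes code for 4-pass membrane proteins, most of which are transmembrane AMPA receptor regulatory proteins (TARPs) that traffic glutamate receptors. Cacng4 was at 21.8 and 21.6 TPM, or 70.3% ± 1.5 of the class (SD, n = 2). Cacng2, or stargazin, was at 2.73 and 2.56 TPM, and its intervals lay below those of Cacng4 in both libraries. Of the other type I TARPs, Cacng3 was at 2.05 and 1.26 TPM and Cacng8 at 1.57 and 1.44 TPM. The type II TARPs were at similar levels, with Cacng7 at 1.95 TPM in each library and Cacng5 at 1.26 and 1.15 TPM. From Cacng2 down to Cacng5 the intervals of neighbours in the order overlapped. Cacng1, the gamma subunit of the skeletal muscle channel, had 3 and 4 counts, and Cacng6 had 0 and 6 counts, with levels of at most 0.170 TPM.

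HCN genes summed to 20.1 and 16.1 TPM, the smallest sum of the 7 classes in both libraries. Hcn3 was at 17.6 and 14.0 TPM, or 87.3% ± 0.174 of the class (SD, n = 2), and lies at chr3:89146074-89160196 on the minus strand. Hcn4, the main sinoatrial pacemaker channel, was at 2.21 and 1.82 TPM, below Hcn3 with intervals apart in both libraries. Hcn2, a major form of adult thalamus, was at 0.200 and 0.140 TPM, with 11 and 10 counts.

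**Figure D2:**
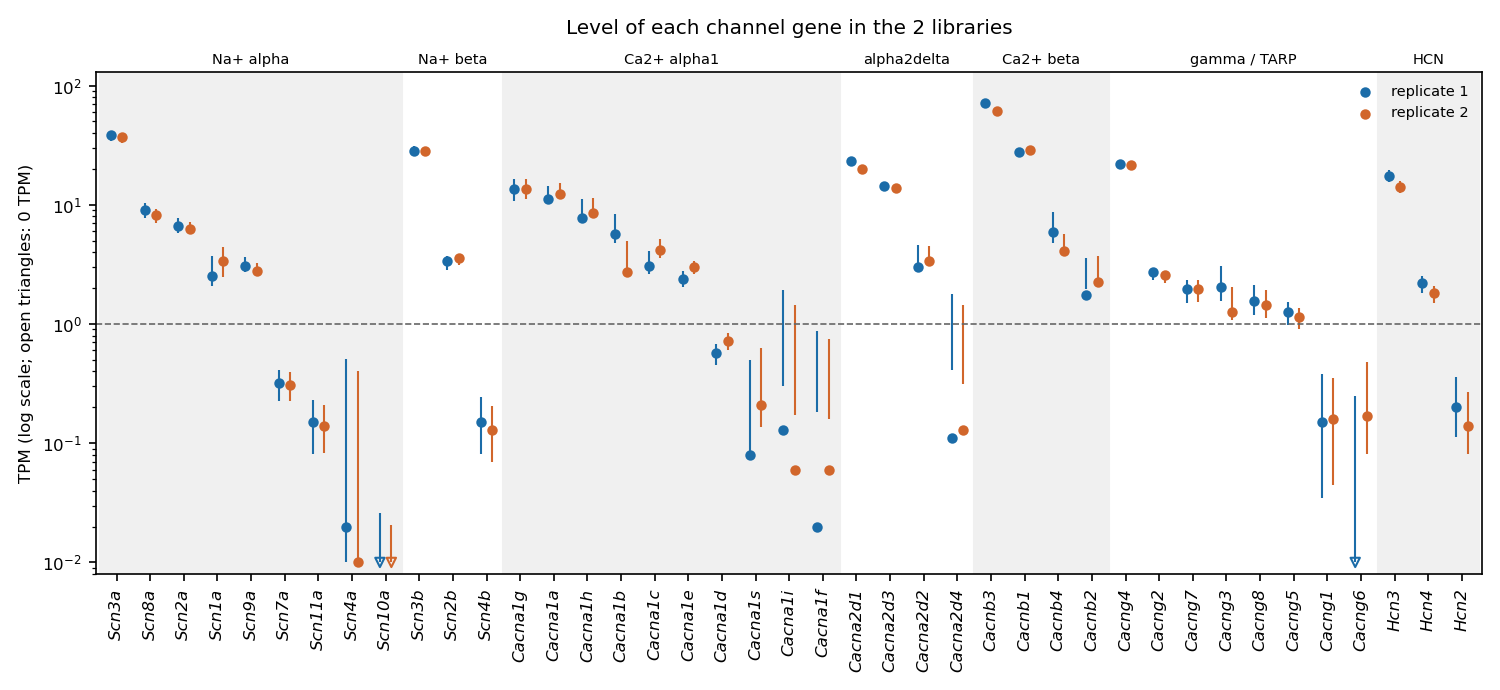
Points give the deposited TPM of the members named in the text in replicate 1 (blue) and replicate 2 (orange) on a log axis, vertical lines the deposited TPM intervals, and open triangles a level of 0 TPM. Each member shown lies on the same side of the dashed line at 1 TPM in both libraries, and in 6 of the 7 classes the intervals of the leading gene lie above those of the next gene in both libraries.

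A gene's TPM sums over all of its annotated transcripts, including short fragments and transcripts with a retained intron. Levels were therefore also summed over full-length coding transcripts, which hold at least 80% of the gene's longest annotated coding sequence. This split was chosen after the data had been seen. In the 29 members at a mean of 1 TPM or more, the median share of TPM on full-length transcripts was 72.5% in replicate 1 and 85.1% in replicate 2. The median share of counts was 96.1% and 97.3%, since a short transcript turns a few reads into a large TPM. Full-length transcripts held 90% or more of TPM in both libraries for 10 of the 29 members. All of these 10 but Cacng4 have only full-length transcripts in the files, so their share was fixed in advance. The share was under 50% in both libraries for 6 members (Cacnb2, Cacna1a, Scn8a, Scn1a, Cacna1g and Cacna1e).

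Order within the pore classes depended on this split. Full-length Scn3a was at 25.5 and 21.5 TPM and remained the highest alpha gene. Full-length Scn8a was at 3.70 and 2.91 TPM, below full-length Scn2a at 5.29 and 5.10 TPM. In Scn8a, a 3-exon transcript of 1072 nt named Scn8a-202 took 59.4% and 64.2% of the gene's TPM from 93.4 and 114 counts. The gene totals put Scn8a above Scn2a in both libraries, and the full-length levels put Scn2a above Scn8a in both. For Scn1a, full-length transcripts were at 1.26 and 1.22 TPM, or 49.4% and 36.4% of the gene.

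Cacna1a was the calcium channel pore most affected. Its full-length transcripts were at 2.26 and 1.91 TPM, or 20.1% and 15.5% of the gene's TPM, while noncoding transcripts held 79.9% and 84.5%. By counts, full-length transcripts held 67.7% and 60.4% of Cacna1a. Its annotated transcripts with a retained intron, of which there are 5, included Cacna1a-206 at 2.07 and 3.27 TPM and Cacna1a-207 at 2.18 and 1.61 TPM. Among full-length pore transcripts, Cacna1g at 5.40 and 6.17 TPM and Cacna1h at 5.45 and 5.49 TPM led the class. Full-length Cacna1a then stood below full-length Cacna1b, at 3.50 and 2.72 TPM, in both libraries. Full-length Cacna1c was at 1.61 and 1.93 TPM. Cacna1a also overlaps exons of Gm16183 on the other strand, which was at 2.41 and 1.46 TPM, and the strand setting of the counts is not given in the sources used here.

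The difference of Cacna1b between the pools lay partly in a fragment. Its gene TPM was 5.69 and 2.72, and its counts, before scaling to library size, were 597 and 580, a scaled ratio of 0.752. Cacna1b-208, of 523 nt, was at 2.04 TPM in replicate 1, from 15.3 counts, and at 0 in replicate 2. Cacnb2 was the only one of the 29 members whose full-length level fell under 0.5 TPM, at 0.160 and 0.0700 TPM, with noncoding transcripts at 86.2% and 87.9% of the gene. By contrast, Cacnb3 and Cacna2d1 had every annotated transcript in the full-length set, and Hcn3 kept 10.6 and 9.62 TPM, or 60.4% and 68.7% of its gene.

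**Figure D3:**
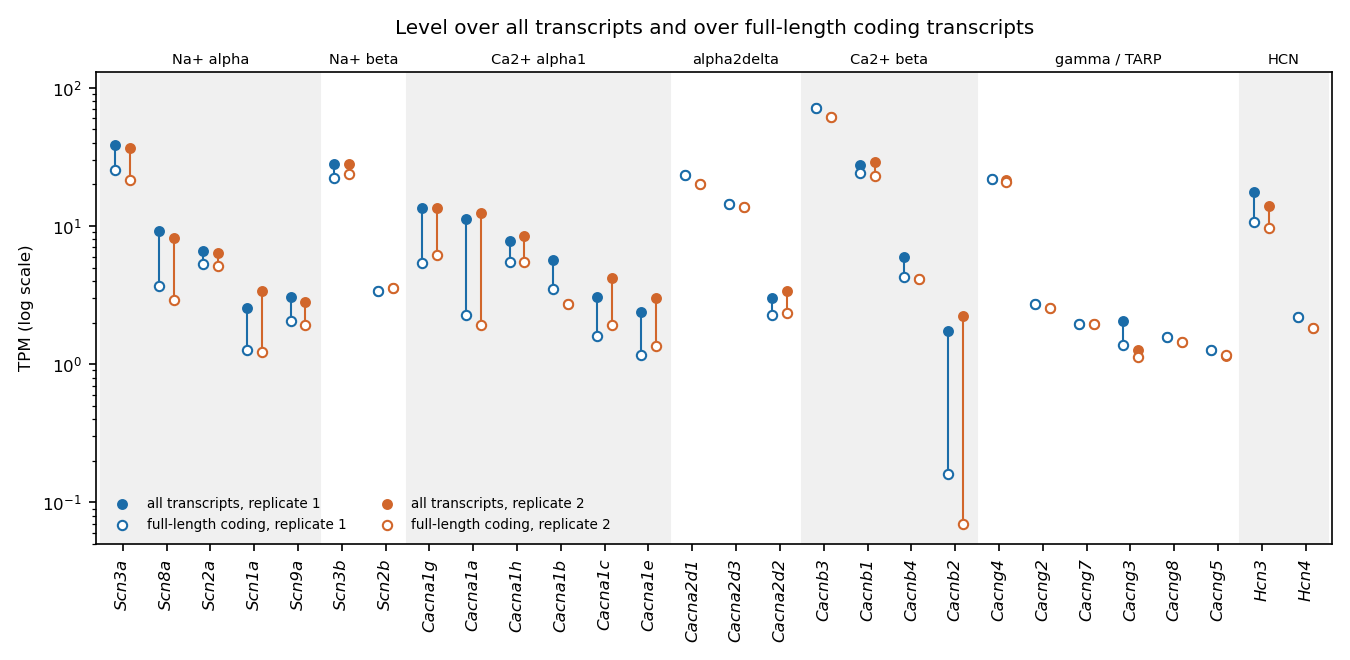
For the members at a mean of 1 TPM or more that are named in the text, filled points give the TPM over all transcripts and open points the TPM over full-length coding transcripts, by replicate on a log axis, joined by a line. Full-length transcripts held under 50% of TPM in both libraries for Cacnb2, Cacna1a, Scn8a, Scn1a, Cacna1g and Cacna1e.

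Top isoforms were compared for the 13 members at a mean of 5 TPM or more with several annotated transcripts. The same transcript had the highest isoform percent in both libraries for 12 of them, and the exception was Cacna1a (Cacna1a-201 in replicate 1 and Cacna1a-206 in replicate 2). Scn3a-202, with 27 exons, held 51.8% and 44.1% of Scn3a. Cacnb3-202 held 79.5% and 79.2% of Cacnb3, and the leading transcript of Cacna2d1, with 39 exons, held 71.9% and 73.4%. Scn3b-201 and Scn3b-203, which have coding sequences of equal length, held 43.2% and 43.1%, and 25.6% and 36.1%. Scn2a-201 held 79.6% and 80.8%, Cacnb1-201 87.6% and 79.0%, Cacna1h-205 70.0% and 64.5%, Hcn3-201 60.4% and 68.7%, and Cacng4-201 all of Cacng4 in replicate 1 and 96.9% in replicate 2. These leading transcripts are all full-length. In Cacna1g the top transcript was a 434-nt noncoding one, Cacna1g-213, at 29.0% and 35.7%, and its counts were 23.1 and 36.3. Cacnb4-202 led Cacnb4 at 33.2% and 56.9%, and Scn8a-202 led Scn8a. The only annotated transcript of Cacna2d3, Cacna2d3-201, is full-length.

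The transcript levels also divide the alternative exon copies, and shares are given for 6 genes in which both copies lie on transcripts in the files. In Scn8a, transcripts with the upstream copy were at 2.99 and 2.38 TPM and those with the downstream copy at 0.710 and 0.530 TPM, so the upstream copy held 80.8% and 81.8% of the pair. In Scn9a the upstream copy was at 2.06 and 1.69 TPM, which was all of the pair in replicate 1 and 88.0% of it in replicate 2. The full-length Scn2a transcripts, at 5.29 and 5.10 TPM, are annotated with the upstream copy. The only annotated Scn2a transcript with the downstream copy had another structure in the files. These levels therefore do not separate the Scn2a copies, and no share is given.

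Scn3a differed in form, because its copies are not annotated on like transcripts. Both full-length Scn3a transcripts carry the downstream copy, at 25.5 and 21.5 TPM from 3911 and 4190 counts. The upstream copy is annotated only on Scn3a-203, a 365-nt fragment of 4 exons, at 12.3 and 14.9 TPM from 58.0 and 88.6 counts. The upstream share of the pair was 32.6% and 40.9% of TPM. Outside that fragment, reads from a transcript with the upstream copy have no annotated transcript to go to but those with the downstream copy, so the full-length levels do not separate the copies.

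In the calcium channel pores the shares were mixed. Cacna1b had its downstream copy at 3.50 and 2.72 TPM and its upstream copy at 0 in both, the latter on a fragment of 332 nt. All full-length Cacna1b transcripts carry the downstream copy, so, as in Scn3a, their levels do not separate the copies. In Cacna1c the upstream copy held 32.3% and 40.4%, and in Cacna1d 52.6% and 43.1%, from 47.5 and 62.3 counts. All of the Cacna1c upstream level lay on Cacna1c-207, of 13162 nt, and most of the downstream level on Cacna1c-216, of 7338 nt. Counts were 121.3 and 227.6 on upstream and 139.4 and 186.3 on downstream transcripts of Cacna1c. These transcripts also differ outside the exon, so the Cacna1c share is not a measure of the exon alone. Cacna1e was at 1.16 and 1.35 TPM on transcripts with its downstream copy, and no transcript with the upstream copy was analysed here.

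**Figure D4:**
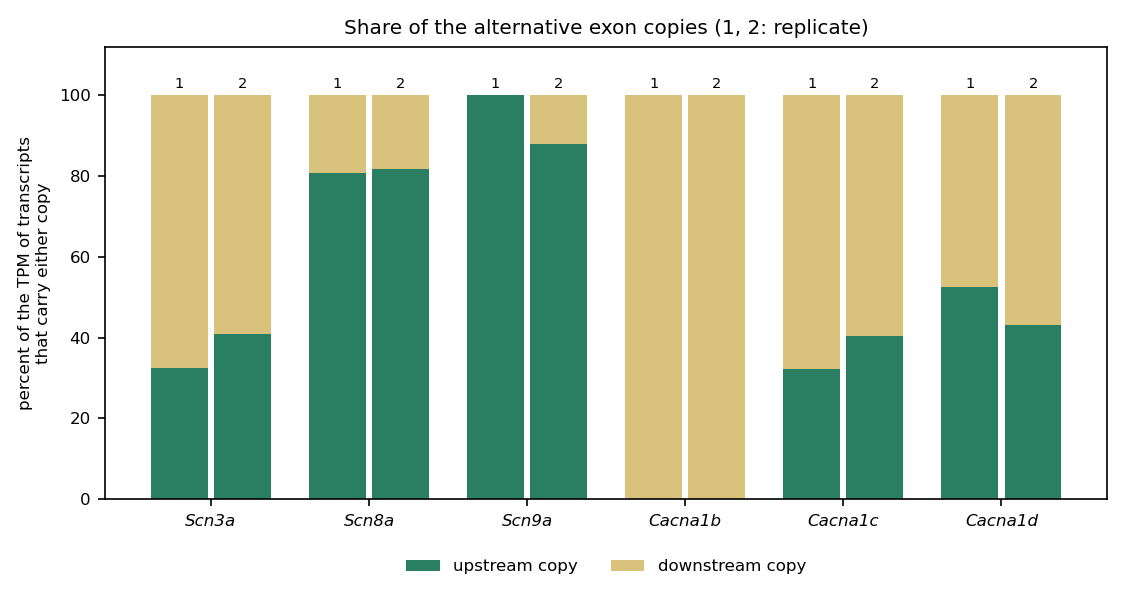
Stacked bars give, for 6 genes and both replicates, the percent of TPM on transcripts with the upstream (green) or downstream (sand) exon copy, over the transcripts that carry either. Scn8a and Scn9a were mostly on the upstream copy in both libraries. For Scn3a and Cacna1b the upstream copy is annotated only on a short fragment, so their shares are not between like transcripts. The Cacna1c shares compare full-length transcripts of unlike length.

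Differences between the 2 pools were read beside those of all genes. A gene was called where a two-sided exact binomial test on scaled counts gave a p under 0.05 after Benjamini-Hochberg adjustment over all tested genes, where the libraries differed by 1.5-fold or more, and where the mean reached 1 TPM. This test compares these 2 libraries and covers counting error only. None of the 29 members at a mean of 1 TPM or more was called, beside 3.55% of the 15199 tested genes at that level. The other members could not be called under the TPM minimum. With so few members, the absence of calls is not read as a trait of these genes. Of the 39 members with at least 10 counts in all, 11 had an unadjusted binomial p under 0.05, and 9 of the 29 at 1 TPM or more, where the share over all such genes was 36.3%. The negative binomial exact test of edgeR took its spread over all genes from these same 2 libraries, treated as replicates. It therefore picks out genes that differ more than most, and cannot decide whether the pools differ. That test gave 0 members at an adjusted p under 0.05, beside 1.32% of all genes at 1 TPM or more. Its unadjusted p was under 0.05 for 0 of the 29 members at 1 TPM or more, beside 5.74% of all genes at that level. Among the 39 tested members it was under 0.05 for 1, Cacna1i, which is under 1 TPM, beside 1321 of all 18939 tested genes.

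At any ratio, 6 members were lower in replicate 2 with an adjusted binomial p under 0.05 and 2 were higher. Over all genes at 1 TPM or more, 14.1% were lower and 12.3% higher by that rule, or 26.4% in either direction. Scn3a had 4026 and 4308 counts, and after scaling replicate 2 was at 0.828 of replicate 1 (95% exact binomial interval -0.33 to -0.21 on the log2 scale, adjusted p = 5.93e-16). Cacnb3 had 3274 and 3586 counts and a scaled ratio of 0.848 (adjusted p = 3.43e-10). Cacna2d1 had 2661 and 2918 counts and a scaled ratio of 0.849 (adjusted p = 2.99e-08). These 3 genes had the highest counts of the members, so that small ratios passed the test.

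The other members that passed at any ratio did so with fewer counts. Scn8a had a scaled ratio of 0.792 (adjusted p = 3.13e-05), Cacna1b of 0.752 (adjusted p = 1.84e-05) and Hcn3 of 0.862 (adjusted p = 0.0135). Cacna1c, with 303 and 476 counts, had a scaled ratio of 1.22 (adjusted p = 0.0390), and Cacna1e, with 364 and 559 counts, of 1.19 (adjusted p = 0.0470). The negative binomial test, whose spread comes from the difference between these same 2 libraries, gave these 8 genes unadjusted p-values from 0.0516 to 0.298. Only Cacnb3 and Cacna2d1 had deposited TPM intervals that did not overlap between the libraries, as did 16.1% of all genes at 1 TPM or more. Cacna1b and Scn8a had the largest differences of the 8.

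As a list, the 39 tested members had a median log2 ratio of replicate 2 over replicate 1 of -0.11, with 28 lower and 11 higher, beside 0.00 over all 18939 tested genes. The 29 members at 1 TPM or more had a median of -0.09, with 20 lower and 9 higher, where 50.3% of all such genes were lower. The 10 young neuron markers had a median of -0.14 and the 7 progenitor markers -0.11. The 4 mesenchyme markers had a median of 0.46, the 5 endothelial markers 0.19 and the 4 red cell globins 0.19. The part of these shifts in the members' ratios was not tested.

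**Figure D5:**
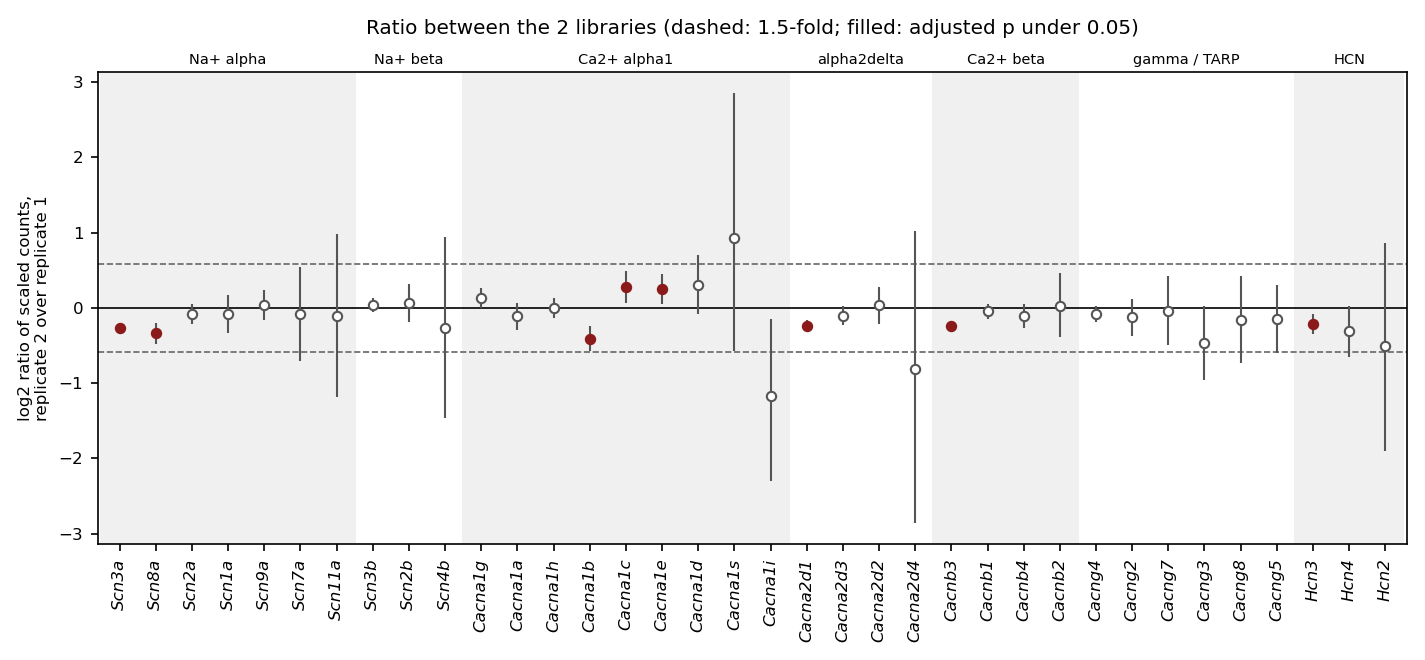
Points give the log2 ratio of scaled counts, replicate 2 over replicate 1, for the members with at least 10 counts that are named in the text, with 95% exact binomial intervals for counting error only. Filled points passed an adjusted p under 0.05 at any ratio, and all 8 lie between the dashed lines at 1.5-fold.

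Channel partners were read from lists of known binding proteins. Of 14 sodium channel partners, 13 were at 1 TPM or more in both libraries and 1 (Sptbn4) was under 1 TPM in both, and none was called. The calmodulin genes Calm2 and Calm3, whose protein binds the tail of the pore, were at 884 and 856 TPM, and at 176 and 181 TPM. Ank2, an axonal ankyrin, was at 76.6 and 73.0 TPM. Each of these 3 genes was above every sodium channel pore gene in both libraries.

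Of 13 calcium channel partners, 8 were at 1 TPM or more in both libraries and 4 (Stac, Stac2, Rem1 and Rimbp2) were under 1 TPM in both, and none was called. Ncs1, a neuronal calcium sensor, was at 72.7 and 62.6 TPM. Cachd1, an alpha2delta-like protein, was at 45.6 and 42.9 TPM, above each of the 4 Cacna2d genes. Rem2, a GTPase that inhibits calcium channels, was at 36.1 and 35.2 TPM, and Rims2, a scaffold of the active zone, at 13.9 and 12.8 TPM.

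Among 5 HCN partners, Kctd3, which binds Hcn3, was at 33.2 and 36.3 TPM, above Hcn3 itself. Kcne2, an accessory subunit of HCN and potassium channels, was called lower in replicate 2. It was at 2.16 and 0.320 TPM, 6.91-fold apart after scaling (adjusted binomial p = 4.44e-11). Mrvi1 was at 0.990 and 1.48 TPM, and Pex5l, a trafficking protein of HCN channels, at 1.28 and 1.11 TPM. Lrmp was under 1 TPM in both.

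Of 16 related cation channel genes, 6 were at 1 TPM or more in both libraries and 9 under 1 TPM in both. The sodium leak channel complex was present, with its pore Nalcn at 4.23 and 3.16 TPM and its subunits Fam155a at 7.09 and 6.23 TPM and Unc79 at 3.98 and 3.93 TPM. Its subunit Unc80 was at 1.57 and 0.940 TPM and was called lower in replicate 2, 1.63-fold apart (adjusted binomial p = 0.0227). Tpcn1, an endolysosomal channel, was at 3.35 and 3.66 TPM. All 6 cyclic nucleotide-gated (Cnga and Cngb) genes stayed under 1 TPM.

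REST is a repressor of neuronal genes in non-neuronal cells and progenitors, and a sodium channel gene, Scn2a, is among its classic targets. All 8 genes of the REST repressor list were at 1 TPM or more in both libraries and none was called. Rest was at 15.6 and 16.9 TPM. The list was led by Hdac2 at 361 and 347 TPM, Hdac1 at 153 and 156 TPM, Kdm1a at 103 and 93.0 TPM and Rcor2 at 78.1 and 77.9 TPM. No binding was measured here.

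Markers of the cells that a midbrain dissection may hold were set beside the members. All 10 young neuron markers (led by Tubb3, Stmn2, Ina and Map2) and all 7 progenitor markers (led by Vim, Fabp7, Hes5 and Top2a) were at 1 TPM or more in both libraries. Their summed levels were 2359 and 2234 TPM, and 3017 and 3022 TPM. Skeletal muscle markers, beside the muscle genes Scn4a, Cacna1s and Cacng1, were under 1 TPM in both libraries for 8 of 11. The 4 highest were Tnnt1, Actc1, Acta1 and Tnnt3. Myod1 was at 0.03 and 0.05 TPM. Of 4 photoreceptor markers, beside Cacna1f and Cacna2d4, all were under 1 TPM, with Nrl and Rcvrn at 0 in both and Crx at 0.460 and 0.760 TPM.

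For Hcn4, 1 of 6 heart markers was under 1 TPM in both, and the sums were 6.03 and 10.0 TPM. The heart list was led by Tnni3, Tnnt2, Nppa and Myh7. Peripheral sensory neuron markers, beside Scn9a, Scn10a and Scn11a, were all 6 at 1 TPM or more, with sums of 36.7 and 43.1 TPM, with Prdm12 and Prph among the highest. Nppa of the heart list and Runx1 of the sensory list were called higher in replicate 2, by 2.66-fold and 2.44-fold (adjusted binomial p = 0.0142 and 4.41e-13). The part of such cells in the levels of Scn9a and Hcn4 was not tested.

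Of the remaining cell types, smooth muscle and pericyte markers summed to 91.3 and 123.8 TPM, led by Acta2, Tagln, Pdgfrb and Rgs5, with 1 of 6 under 1 TPM. Schwann and oligodendrocyte lineage markers summed to 44.8 and 47.7 TPM, led by Mbp, Pdgfra and Olig2, with 2 of 6 under 1 TPM and Olig2 called lower in replicate 2, 1.90-fold (adjusted binomial p = 1.87e-14). Mesenchyme (Col3a1, Col1a1, Lum and Dcn) summed to 862 and 1231 TPM, and endothelium, led by Egfl7, Cldn5, Kdr and Esam, to 130.8 and 150.9 TPM. Microglial markers (C1qb, Tyrobp, Aif1 and Cx3cr1) summed to 51.2 and 64.6 TPM. The red cell genes Hba-x, Hba-a1, Hba-a2 and Hbb-y summed to 14910.0 and 17480 TPM, beside 337 and 317 TPM for all 44 channel genes.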

How the data were processed

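The 2 RNA-seq libraries of E12.5 midbrain were analysed as 1 group, with replicate numbers from the labels. Expected counts, deposited per gene and per transcript, are estimates that need not be whole, in the columns of an RSEM output per the file headers. The deposited TPM values and TPM intervals are abundances normalised by the authors to effective length and library, spike-ins included. The deposited isoform percent is each transcript's share of its gene. The submitters' annotation was GENCODE M4 on mm10, per the deposited file descriptions, and the aligner is not given in the sources used here. The labels name total RNA and link the manual of a SMARTer Ultra Low kit. Strand setting is not given. Spike-ins took 4.14% and 3.48% of counts.

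GENCODE M21, on the same assembly (GRCm38), gave symbols, coordinates, coding lengths and exons. Of the 231 member transcripts, 228 matched. Of these, 21 had another length in the files, and 2 that were shorter than their M21 coding sequence were not used for exons or full-length sums. Overlapping and antisense genes, and reads in exons that sodium channel genes share, remain uncertain.

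Counts were rounded to whole numbers. Genes with at least 10 counts summed entered a two-sided exact binomial test of the 2 libraries, scaled by edgeR 4.0.16 TMM factors (0.995 and 1.005, R 4.3.3), with Benjamini-Hochberg adjustment over all tested genes. Calls needed an adjusted p under 0.05, 1.5-fold and a mean of 1 TPM. Log2 ratios had 0.5 counts added. Intervals are 95% exact (Clopper-Pearson) and cover counting error only. A group of 2 pools of embryos gives no contrast between conditions. The script was tested on simulated data. Exon pairs were coding exons of equal length, at least 40 nt long and at most 2000 nt apart, on different transcripts.

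Members and lists were chosen with earlier results of these data known. Members were named, those at a mean of 1 TPM or more with both values, the rest with their range, and isoforms at a mean of 5 TPM or more. Of each other list, the 4 highest genes, every called gene and the number under 1 TPM were given. A few members, list genes and sequences are not reported here by name and remain in the counts, sums and medians. Protein sequences were not used here. Alternatives were DESeq2 1.42.0 size factors, total counts, count, fold and TPM thresholds, edgeR's negative binomial exact test, posterior mean TPM, CPM, rescaled TPM and leaving out each library. Full-length levels were added after the data had been seen. Further tools were scipy 1.17.1, numpy 2.4.6, pandas 2.3.3 and matplotlib 3.10.9, under Python 3.11.15.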

Additional observations from a re-analysis of the deposited data

How the results depend on the processing

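No member was called under any of the 8 alternatives tried (other size factors, count, fold and TPM thresholds, negative binomial test). The settings of 2-fold and of a mean of 5 TPM only tighten the main call, so they could not add a member. The spread in the negative binomial test came from the same 2 libraries that it compared. Calls over all genes were 201 with the negative binomial test, 213 at 2-fold, 206 at a mean of 5 TPM and 849 with no TPM minimum, beside 539. The median log2 ratio of the members stayed negative, from -0.11 to -0.05. At a threshold of 5 TPM in both libraries 13 members were detected. At 1 TPM, either library alone gave 29. At a mean of 1 TPM or more, 19 of 25 members kept their top isoform, and 15 did by posterior isoform percent. By that percent, 11 of the 13 members at a mean of 5 TPM or more kept theirs. With posterior mean TPM, Scn3a held 62.3% and Cacna1g 27.4% of their classes. With CPM, uncorrected for length, the shares were 62.2% for Scn3a, 85.8% for Scn3b, 24.8% for Cacna1g, 68.2% for Cacna2d1, 58.7% for Cacnb3 and 83.9% for Hcn3. Over full-length transcripts they were 65.4%, 83.4%, 28.5% for the first 3 of these, 70.4% for Cacnb3 and 81.6% for Hcn3. By the mean of both libraries the leader was the same gene in each of these settings, although full-length Cacna1h (5.45 TPM) was above full-length Cacna1g (5.40 TPM) in replicate 1. By posterior isoform percent the upstream exon copy held 75.3% of Scn8a and 7.15% of Cacna1b. Without replicate 1 or 2 the shares ranged from 63.4% to 63.6% (Scn3a), 84.3% to 85.1% (Scn3b), 29.8% to 30.2% (Cacna1g), 53.6% to 56.9% (Cacna2d1), 63.6% to 66.9% (Cacnb3), 69.2% to 71.4% (Cacng4) and 87.2% to 87.4% (Hcn3). Calls and ratios cannot be given with 1 library. No paired analysis was possible because the labels give 1 group. The TPM shares of the fragments Scn3a-203 and Scn8a-202 rest on at most 88.6 and 114 counts.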
